A study of Oryza sativa Japonica Group with 64 samples.

Results

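The dawn change of the short-day (SD) flag leaf was measured by comparing RNA-seq libraries of leaves collected at 08:00 with libraries of leaves collected at 04:00. The 8 libraries used, of 64 in the series, are all those labelled flag leaf, SD and 1 of these hours, 4 at each hour. They hold Oryza sativa ssp. japonica 9522 wild type (WT) and the csa mutant, each with 2 libraries per hour labelled biological replicates. All plants grew in a paddy field, and the flag leaf, the last leaf below the panicle, was taken when anthers were at stage 12. SD plants, WT and csa alike, had 12 h of light under a lightproof film that covered them from 18:00 to 6:00. At 04:00 they had been covered for 10 h, and at 08:00 they had been uncovered for 2 h. Uncovered plots at the natural day length of 14.5 h formed the long-day (LD) group, which enters only the last comparison. Collection time, the lifting of the film with the light that followed, and any other difference between the hours cannot be told apart in this design. The labels do not say on which dates leaves were taken, and they list 08:00 first and 04:00 last in the collection order. CSA, for carbon starved anther, is known as a MYB transcription factor gene whose mutants lose male fertility in short days, and the labels describe the mutant line only as csa.

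In plants, dawn is met by both the circadian clock and the photoreceptors. The morning clock gene OsLHY encodes a MYB repressor, the pseudo-response regulators (PRR) encode repressors that act in sequence through the day, and GIGANTEA (OsGI) links the clock to flowering. Light releases the synthesis of chlorophyll and of light-harvesting proteins, activates Rubisco and starts carbon export, while the night is spent on starch reserves. In rice, short days induce the florigen Hd3a, a mobile protein made in the leaf that triggers flowering at the shoot tip.

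The 8 libraries held 13463425 to 17934550 counted reads, and replicates of a group correlated at r of 0.969 to 0.981 across genes, which are not independent replicates, against 0.838 to 0.881 between hours. Levels below are CPM, counts relative to a fixed library size, scaled by the TMM method over these 8 libraries, where 10 counts equal 0.527 to 0.782 CPM. Of 6 marker genes that separate the genotypes in other libraries of the series, 0 of 48 values lay nearer the other genotype. The 6 anther markers that could be checked summed to 0.198 to 0.411 CPM at 04:00 and 0.0782 to 0.535 CPM at 08:00, with 4 of them at 0 in every library. The locus taken as CSA, LOC_Os01g16810, an assignment that the tables used here do not annotate, stood at 2.31 and 1.23 CPM in WT and 0.859 and 1.79 CPM in csa at 04:00, and 0.14 and 0.0782 CPM in WT and 0.0669 and 0.213 CPM in csa at 08:00. Its level did not follow the genotype at either hour and was lower at 08:00 than at 04:00 in every pairing of libraries (log2 change -3.55 with SE 0.52, adjusted p = 0.00014 in edgeR), so the transcript of this locus does not check the mutation.

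Most of the tested genes, those that passed a filter on low counts, differed between the hours. Of 19602 genes tested, 5783 (29.5%) rose and 5866 (29.9%) fell from 04:00 to 08:00 at an adjusted p below 0.05 in edgeR's quasi-likelihood test with genotype as a factor and Benjamini-Hochberg adjustment over all genes, 11649 (59.4%) in all. Every adjusted p below comes from tests of this kind. A change of at least 2-fold was found in 2929 rising and 3173 falling genes, and one of at least 16-fold in 166 rising and 95 falling genes. For 10184 of the 11649 genes the 4 libraries of an hour lay entirely to one side of the other 4. The first principal component, which held 73.3% of the variance, separated the hours, and the second held 7.24%. The split depends on scaling: the 20 most abundant genes took 23.6% to 26.2% of the reads at 08:00 against 18.5% to 22.7% at 04:00, TMM factors were 0.795 to 0.861 against 1.13 to 1.25, and with library totals alone 2890 genes rose and 10465 fell, with the median of all genes shifted to -0.54 on the log2 scale. Values are therefore relative to the other transcripts, and fewer cells of a type and less RNA per cell cannot be told apart in whole leaves. Of 137 genes listed by function whose symbols could be placed in the reference gene table, 123 were tested, 78 rose, 20 fell and 25 did not pass, and 90 of the 98 that changed had no overlap between the hours. The shares over all tested genes, 29.5% for rises and 29.9% for falls, stand as the background of each list below. For list counts with library totals alone, the background is instead the 2890 rises and 10465 falls among all 19602 genes. A list with more falls than rises there follows the direction of all genes. The lists were chosen with earlier results of these data known, so list shares beside these backgrounds are a description and were not tested.

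**Figure D1:**
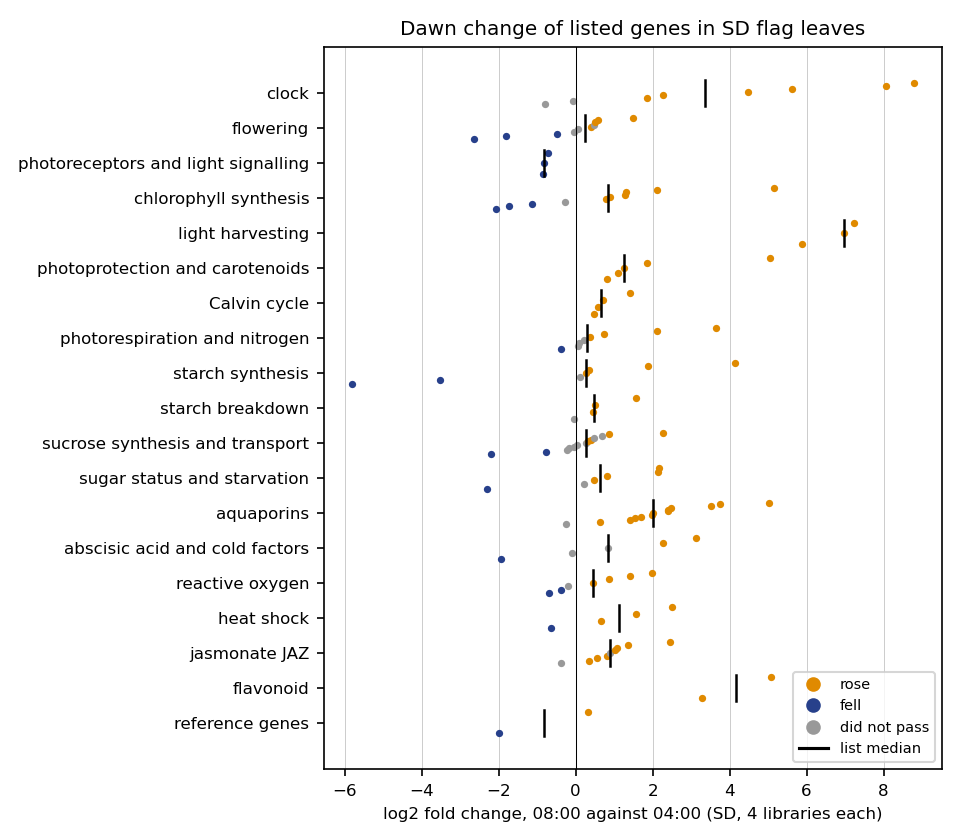
Log2 fold change at 08:00 against 04:00 in SD flag leaves (x axis; 4 libraries per hour) for each tested gene of 19 functional lists (y axis), coloured by whether it rose, fell or did not pass, with the list median as a black line. The light-harvesting list has the highest median (6.98), the clock genes OsPRR73 and OsPRR95 are the points farthest to the right, and the 3 phytochrome genes all lie left of 0 (median -0.83); the lowest point in the starch synthesis row, SSIIa, rests on 0 counts at 08:00.

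Clock genes of the day rose, several of them from near the detection limit. Of the 8 placed clock genes, all tested, 6 rose, 0 fell and 2 did not pass, with a median log2 fold change of 3.37 beside -0.01 over all genes. The share of rises was 75% against 29.5% over all genes, and with library totals alone 6 rose and 2 fell. OsPRR73 (LOC_Os03g17570), a pseudo-response regulator, had 1.32 and 1.76 CPM in WT and 1.19 and 0.949 CPM in csa at 04:00, and 514 and 654 CPM in WT and 515 and 619 CPM in csa at 08:00. All 4 libraries at 08:00 lay far above all 4 at 04:00, a 442-fold rise (log2 change 8.79 with SE 0.20, adjusted p = 1.47e-09 in edgeR). OsPRR95 (LOC_Os09g36220), a regulator that in rice follows it in the day, had 1.32 and 2.41 CPM in WT and 1.06 and 1.48 CPM in csa at 04:00, and 382 and 457 CPM in WT and 413 and 443 CPM in csa at 08:00. It too went from barely detected to abundant in both genotypes (log2 change 8.08 with SE 0.21, adjusted p = 1.76e-09 in edgeR). OsPRR37 (LOC_Os07g49460), known as the heading-date gene Hd2, had 0.714 and 1.41 CPM in WT and 1.32 and 1.26 CPM in csa at 04:00, and 62.6 and 64.5 CPM in WT and 51.7 and 52.3 CPM in csa at 08:00. Both WT libraries at 08:00 were above both csa libraries, and all were above those at 04:00 (log2 change 5.61 with SE 0.18, adjusted p = 4.77e-09 in edgeR). Here and below, an order of WT and csa at 1 hour compares 2 libraries with 2 and was not tested.

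OsGI (LOC_Os01g08700) had 10.4 and 10.8 CPM in WT and 9.51 and 9.8 CPM in csa at 04:00, and 227 and 252 CPM in WT and 199 and 223 CPM in csa at 08:00. The hours did not overlap and the rise was 22.2-fold (log2 change 4.48 with SE 0.11, adjusted p = 1.63e-09 in edgeR). OsPRR1 (LOC_Os02g40510), the rice counterpart of the Arabidopsis evening gene TOC1, had 4.23 and 3.58 CPM in WT and 3.77 and 3.79 CPM in csa at 04:00, and 17.9 and 20.3 CPM in WT and 18.2 and 17.9 CPM in csa at 08:00. Its replicates lay close together at both hours, and the rise was 4.82-fold (log2 change 2.27 with SE 0.13, adjusted p = 1.54e-07 in edgeR). OsLHY (LOC_Os08g06110) was already abundant before dawn, with 1889 and 2422 CPM in WT and 2102 and 1975 CPM in csa at 04:00, and 6451 and 7490 CPM in WT and 7602 and 8827 CPM in csa at 08:00. It rose 3.61-fold without overlap (log2 change 1.85 with SE 0.15, adjusted p = 1.26e-06 in edgeR). Members of the evening complex, which represses daytime genes at night, gave no call, and with library totals alone OsELF3-1 and OsLUX both passed as falls (log2 changes -0.58 and -1.33, adjusted p = 0.00128 and 0.00898 in edgeR). OsELF3-1 had 213 ± 16.6 CPM at 04:00 and 204 ± 33.5 CPM at 08:00 (mean ± SD, n = 4), with overlapping libraries (log2 change -0.06 with SE 0.12, adjusted p = 0.675 in edgeR). OsLUX was low at both hours, with 1.12 ± 0.281 CPM at 04:00 and 0.652 ± 0.244 CPM at 08:00 (mean ± SD, n = 4) (log2 change -0.80 with SE 0.37, adjusted p = 0.0847 in edgeR); the call was gained without WT 08:00 replicate 2 (log2 change -1.10, adjusted p = 0.0366 in edgeR).

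Flowering genes moved in both directions: of 10 placed genes described, all tested, 4 rose, 3 fell and 3 did not pass, with a median log2 fold change of 0.23 that became -0.29, with 1 rise and 5 falls, when library totals alone set the scale. These shares, 40% rising and 30% falling, lie near the 29.5% and 29.9% over all genes. Hd3a, OsMADS14, OsMADS15 and Ehd4 rose, and Hd1, DTH8 and Ehd3 fell. Hd3a (LOC_Os06g06320) had 44.6 and 46.9 CPM in WT and 47.6 and 37.4 CPM in csa at 04:00, and 132 and 111 CPM in WT and 148 and 102 CPM in csa at 08:00. The lowest library at 08:00 lay above the highest at 04:00, a 2.79-fold rise (log2 change 1.48 with SE 0.14, adjusted p = 4.41e-06 in edgeR). Hd1 (LOC_Os06g16370), the rice CONSTANS, which promotes heading in short days and delays it in long days, had 7.08 and 5.93 CPM in WT and 5.48 and 6.17 CPM in csa at 04:00, and 0.772 and 0.938 CPM in WT and 1.47 and 0.709 CPM in csa at 08:00. It fell 6.28-fold with no overlap (log2 change -2.65 with SE 0.25, adjusted p = 5.08e-06 in edgeR). DTH8 (LOC_Os08g07740), a NF-YB subunit that acts with Hd1, had 1.32 and 1.7 CPM in WT and 1.45 and 1.58 CPM in csa at 04:00, and 0.491 and 0.235 CPM in WT and 0.602 and 0.354 CPM in csa at 08:00. Counts were few, and the hours still did not overlap (log2 change -1.82 with SE 0.36, adjusted p = 0.00109 in edgeR).

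The other flowering genes moved by smaller folds. OsMADS14, an APETALA1-type MADS-box gene, went from 808 to 997 CPM over the libraries at 04:00 to 1124 to 1201 CPM at 08:00 (log2 change 0.41 with SE 0.11, adjusted p = 0.00752 in edgeR). Its relative OsMADS15 rose, with 36.1 ± 8.07 CPM at 04:00 and 53.3 ± 4.49 CPM at 08:00 (mean ± SD, n = 4) (log2 change 0.57 with SE 0.15, adjusted p = 0.00784 in edgeR). Ehd4, a zinc-finger activator of flowering in rice, also rose (log2 change 0.51 with SE 0.12, adjusted p = 0.00413 in edgeR), and Ehd3, a PHD-finger activator, fell (log2 change -0.49 with SE 0.13, adjusted p = 0.00741 in edgeR). With library totals alone, the rises of OsMADS14 and Ehd4 turned to -0.12 and -0.01 on the log2 scale. Ehd2, OsMADS50 and OsMADS56 did not pass, with log2 fold changes of 0.49, -0.03 and 0.06. OsMADS56 passed as a fall with library totals alone.

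**Figure D2:**
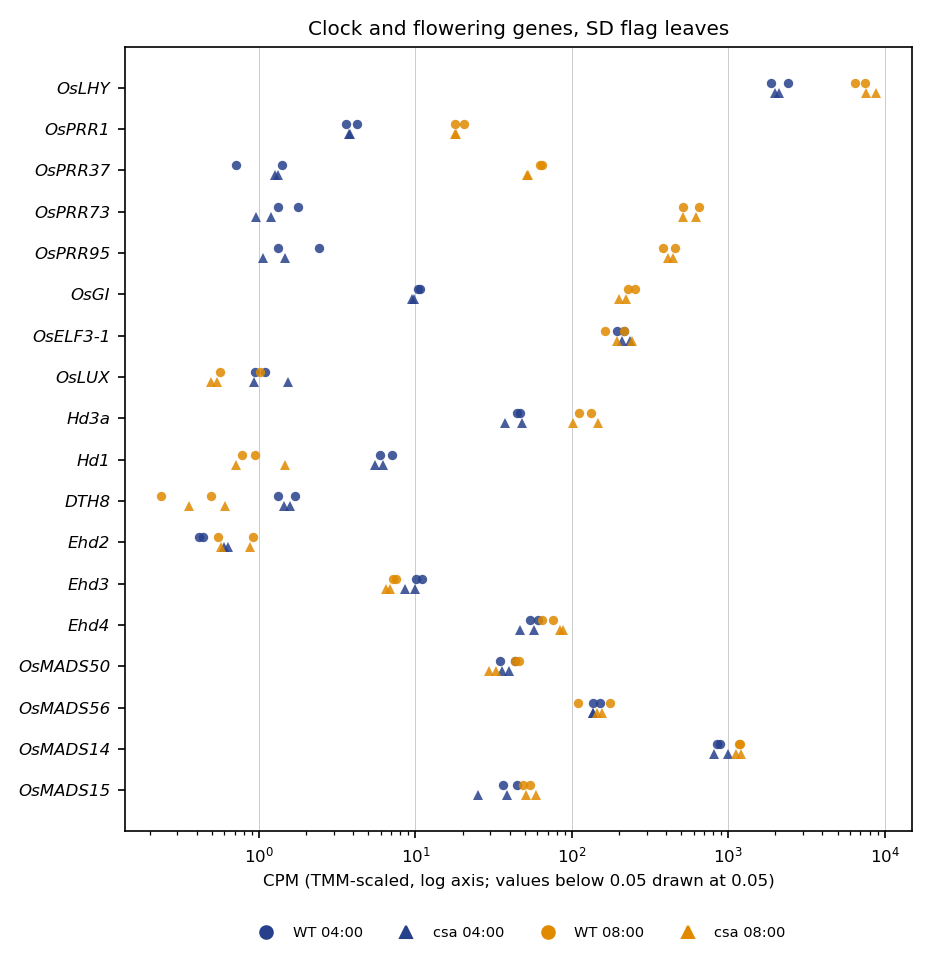
CPM in each of the 8 SD flag leaf libraries (x axis, log scale) for the placed clock and flowering genes (y axis), with 04:00 in blue and 08:00 in orange, circles for WT and triangles for csa. OsPRR73, OsPRR95 and OsPRR37 move from between 0.714 and 2.41 CPM to between 51.7 and 654 CPM, while Hd1 and DTH8 move the other way.

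The 3 phytochromes, the red and far-red light receptors, all fell, against 29.9% of all genes. PHYA (LOC_Os03g51030) had 62.4 and 55.6 CPM in WT and 50.3 and 49.1 CPM in csa at 04:00, and 29.5 and 30.5 CPM in WT and 31.1 and 29.9 CPM in csa at 08:00. The 4 libraries at 08:00 lay within 29.5 to 31.1 CPM and below all at 04:00 (log2 change -0.84 with SE 0.10, adjusted p = 2.79e-05 in edgeR). PHYB, with 116 ± 12.6 CPM at 04:00 and 65.0 ± 6.13 CPM at 08:00 (mean ± SD, n = 4), fell to a similar degree (log2 change -0.83 with SE 0.11, adjusted p = 4.56e-05 in edgeR). PHYC, with 76.0 ± 15.7 CPM at 04:00 and 45.8 ± 5.84 CPM at 08:00 (mean ± SD, n = 4), showed the smallest difference of the 3 (log2 change -0.73 with SE 0.13, adjusted p = 0.00064 in edgeR). None of the 3 overlapped between the hours.

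Transcripts of light-harvesting chlorophyll a/b-binding proteins had the highest median among the lists, over placed members only, while most genes of this list could not be placed. All 3 placed members rose (against 29.5% of all genes), and their summed level went from 73 to 82.8 CPM (0.00885% to 0.0103% of the reads) at 04:00 to 7050 to 12800 CPM (0.606% to 1.01%) at 08:00. CAB1R (LOC_Os09g17740) had 20.8 and 22.2 CPM in WT and 20.8 and 20.3 CPM in csa at 04:00, and 4294 and 3175 CPM in WT and 2492 and 2873 CPM in csa at 08:00. The 4 libraries at 04:00 lay close together, and at 08:00 both WT replicates were above both csa replicates, as they were for the other 2 genes (log2 change 7.24 with SE 0.18, adjusted p = 1.76e-09 in edgeR). That order at 08:00 was not tested. The difference between genotypes in the dawn change passed for 0 of the 3, as for 0 of all 19602 genes tested. LHCB2 (LOC_Os03g39610) had 30.6 and 38.6 CPM in WT and 32.9 and 39.1 CPM in csa at 04:00, and 6440 and 4181 CPM in WT and 3546 and 3914 CPM in csa at 08:00. The first WT replicate at 08:00 stood highest (log2 change 6.98 with SE 0.23, adjusted p = 4.77e-09 in edgeR). CAB2R (LOC_Os01g41710) had 31.1 and 12.1 CPM in WT and 27.7 and 23.4 CPM in csa at 04:00, and 2042 and 1420 CPM in WT and 1009 and 1228 CPM in csa at 08:00. It rose 59.1-fold (log2 change 5.89 with SE 0.33, adjusted p = 1.36e-07 in edgeR). Members of this family are near-identical, and the sources used here do not say how reads were shared among them.

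Chlorophyll synthesis genes moved in both directions: of 10 tested, 6 (60%, against 29.5% over all genes) rose, 3 (30%, against 29.9%) fell and 1 did not pass, with a median log2 fold change of 0.85. The first committed step and the H subunit of magnesium chelatase rose, while the D subunit of the same enzyme fell. OsHEMA1 (LOC_Os10g35840), glutamyl-tRNA reductase, which starts the pathway, had 330.5 and 284 CPM in WT and 341 and 305 CPM in csa at 04:00, and 897 and 804 CPM in WT and 683 and 774 CPM in csa at 08:00. Every library at 08:00 was above every library at 04:00 (log2 change 1.32 with SE 0.12, adjusted p = 3.13e-06 in edgeR). GSA, glutamate-1-semialdehyde aminotransferase, which follows it, went the other way, with 249.9 and 279.5 CPM in WT and 284 and 262 CPM in csa at 04:00, and 82.4 and 60.6 CPM in WT and 50.0 and 65.8 CPM in csa at 08:00. It fell 4.18-fold with no overlap (log2 change -2.06 with SE 0.14, adjusted p = 5.02e-07 in edgeR).

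OsCHLH (LOC_Os03g20700), the porphyrin-binding subunit of magnesium chelatase, had 1152 and 1341 CPM in WT and 1294 and 1088 CPM in csa at 04:00, and 5217 and 5021 CPM in WT and 5187 and 5757 CPM in csa at 08:00. The rise was 4.35-fold (log2 change 2.12 with SE 0.13, adjusted p = 2.18e-07 in edgeR). OsCHLD, the D subunit, had 146 and 179 CPM in WT and 196 and 151 CPM in csa at 04:00, and 55.7 and 44.8 CPM in WT and 41.4 and 59.8 CPM in csa at 08:00. All 4 libraries at 08:00 were below all at 04:00 (log2 change -1.73 with SE 0.15, adjusted p = 2.27e-06 in edgeR). OsCHLI, the ATPase subunit, had 386 ± 20.8 CPM at 04:00 and 319 ± 50.3 CPM at 08:00 (mean ± SD, n = 4) and did not pass, its libraries overlapping (log2 change -0.28 with SE 0.12, adjusted p = 0.0682 in edgeR); the call was gained without WT 04:00 replicate 1 or WT 08:00 replicate 1 (adjusted p = 0.0167 to 0.0441 in edgeR). OsPORA (LOC_Os04g58200), a protochlorophyllide reductase whose reaction needs light, had 0.769 and 0.117 CPM in WT and 0.33 and 0.949 CPM in csa at 04:00, and 40.0 and 19.8 CPM in WT and 13.2 and 12.5 CPM in csa at 08:00. It was nearly undetected at 04:00, and the first WT library at 08:00 held about 3 times the level of the csa libraries (log2 change 5.15 with SE 0.46, adjusted p = 2.99e-06 in edgeR). Its relative OsPORB rose less, with 103 ± 12.4 CPM at 04:00 and 179.9 ± 46.0 CPM at 08:00 (mean ± SD, n = 4) (log2 change 0.79 with SE 0.17, adjusted p = 0.00172 in edgeR).

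Late steps of the pathway also went both ways. OsDVR, divinyl reductase, had 18.9 ± 2.27 CPM at 04:00 and 45.8 ± 10.9 CPM at 08:00 (mean ± SD, n = 4) and rose (log2 change 1.27 with SE 0.17, adjusted p = 5.69e-05 in edgeR). OsCAO1, chlorophyllide a oxygenase, which makes chlorophyll b, had 720.3 ± 67.3 CPM at 04:00 and 1346 ± 126 CPM at 08:00 (mean ± SD, n = 4) and rose (log2 change 0.90 with SE 0.12, adjusted p = 6.62e-05 in edgeR). YGL1, chlorophyll synthase, which attaches the phytol tail, had 96.1 ± 6.39 CPM at 04:00 and 43.8 ± 3.88 CPM at 08:00 (mean ± SD, n = 4) and fell (log2 change -1.13 with SE 0.10, adjusted p = 3.79e-06 in edgeR). The counts of the list became 5 rises and 4 falls with library totals alone.

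Carotenoid genes rose in 5 of 5 tested cases, against 29.5% of all genes, with a median of 1.26. ZEP (LOC_Os04g37619), zeaxanthin epoxidase, which returns zeaxanthin to violaxanthin in the xanthophyll cycle, had 5.71 and 5.76 CPM in WT and 8.65 and 8.59 CPM in csa at 04:00, and 229 and 251 CPM in WT and 218 and 237 CPM in csa at 08:00. At 04:00 both csa libraries lay above both WT libraries, and at 08:00 the genotypes overlapped (log2 change 5.04 with SE 0.16, adjusted p = 3.94e-09 in edgeR). PSY2 (LOC_Os12g43130), a phytoene synthase, which opens carotenoid synthesis, had 162 and 186 CPM in WT and 173 and 185 CPM in csa at 04:00, and 465 and 400.5 CPM in WT and 406 and 418 CPM in csa at 08:00. It rose 2.39-fold without overlap (log2 change 1.26 with SE 0.10, adjusted p = 1.68e-06 in edgeR). PSY1 rose 2.15-fold (log2 change 1.10 with SE 0.11, adjusted p = 9.47e-06 in edgeR) and PSY3, at far fewer counts, 3.62-fold (log2 change 1.86 with SE 0.31, adjusted p = 0.00039 in edgeR). PDS, phytoene desaturase, had 92.1 ± 7.76 CPM at 04:00 and 163 ± 7.54 CPM at 08:00 (mean ± SD, n = 4) (log2 change 0.82 with SE 0.10, adjusted p = 2.45e-05 in edgeR).

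**Figure D3:**
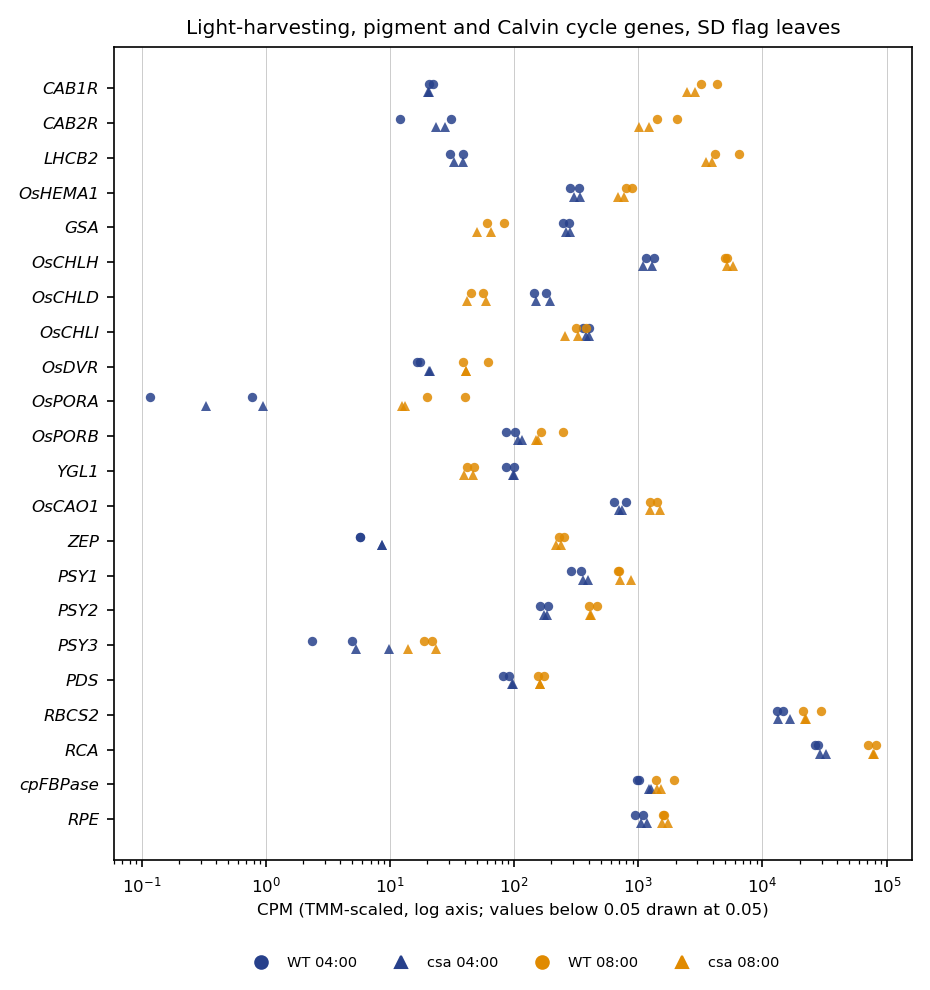
CPM in each of the 8 SD flag leaf libraries (x axis, log scale) for placed light-harvesting, chlorophyll, carotenoid and Calvin cycle genes (y axis), with 04:00 in blue and 08:00 in orange, circles for WT and triangles for csa. CAB1R, LHCB2, CAB2R, ZEP and OsPORA show the widest gaps between the hours, and GSA, OsCHLD and YGL1 are the genes whose 08:00 points lie to the left.

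Calvin cycle transcripts were already abundant before dawn and rose by smaller folds, 4 of 4 tested (29.5% of all genes) with a median of 0.65. With library totals alone 1 of the 4, RCA, rose, the median became 0.12, and RBCS2 and RPE did not pass (adjusted p = 0.195 and 0.574 in edgeR). RCA (LOC_Os11g47970), Rubisco activase, which frees the active site of Rubisco, had 26470 and 27990 CPM in WT and 32780 and 29330 CPM in csa at 04:00, and 81790 and 71510 CPM in WT and 79230 and 77650 CPM in csa at 08:00. It rose 2.67-fold with no overlap (log2 change 1.42 with SE 0.15, adjusted p = 1.37e-05 in edgeR). RBCS2 (LOC_Os12g17600), a Rubisco small subunit with close copies in the genome, had 13170 and 14740 CPM in WT and 16830 and 13360 CPM in csa at 04:00, and 29750 and 21040 CPM in WT and 21880 and 22540 CPM in csa at 08:00. The first WT replicate at 08:00 was again the highest (log2 change 0.71 with SE 0.17, adjusted p = 0.0034 in edgeR). RPE, ribulose-phosphate epimerase, rose 1.51-fold (log2 change 0.59 with SE 0.11, adjusted p = 0.00081 in edgeR), and cpFBPase, the plastid fructose-bisphosphatase, 1.4-fold (log2 change 0.49 with SE 0.15, adjusted p = 0.0135 in edgeR). The sum of the 4 genes went from 5.2% to 5.86% of the reads to 8.17% to 9.14%. For cpFBPase the call was lost without WT 04:00 replicate 1 or WT 04:00 replicate 2 (adjusted p = 0.0533 to 0.0556 in edgeR), and its value turned to -0.04 with library totals alone.

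Nitrogen assimilation and photorespiration gave a mixed picture: of 8 tested genes 4 (50%, against 29.5% over all genes) rose, 1 fell and 3 did not pass. The median of 0.30 became -0.23 with library totals alone, under which 2 rose and 4 fell. The nitrate reductase gene led. NIA1 (LOC_Os08g36480) had 9.5 and 15.4 CPM in WT and 21.2 and 33.4 CPM in csa at 04:00, and 224 and 258 CPM in WT and 217 and 232 CPM in csa at 08:00. At 04:00 both csa libraries were above both WT libraries, and at 08:00 the genotypes overlapped, all far above the earlier hour (log2 change 3.64 with SE 0.27, adjusted p = 9.38e-07 in edgeR). GS1;1 (LOC_Os02g50240), cytosolic glutamine synthetase, had 183 and 212 CPM in WT and 173 and 284 CPM in csa at 04:00, and 1014 and 801 CPM in WT and 1115 and 747 CPM in csa at 08:00. It rose 4.32-fold without overlap (log2 change 2.11 with SE 0.19, adjusted p = 2.85e-06 in edgeR). Its plastid counterpart GS2 had 3107 ± 298 CPM at 04:00 and 4026 ± 381 CPM at 08:00 (mean ± SD, n = 4), a rise of 1.3-fold that turned to -0.15 with library totals alone (log2 change 0.37 with SE 0.13, adjusted p = 0.0272 in edgeR). For GS2 the call was lost without WT 04:00 replicate 1, csa 04:00 replicate 2, WT 08:00 replicate 1 or csa 08:00 replicate 2 (adjusted p = 0.0503 to 0.0885 in edgeR). Fd-GOGAT, the ferredoxin-dependent glutamate synthase that works with GS2, did not pass (log2 change 0.05 with SE 0.13, adjusted p = 0.761 in edgeR). Of the photorespiratory glycolate oxidases, GLO4, at low counts, rose 1.68-fold (log2 change 0.75 with SE 0.21, adjusted p = 0.00889 in edgeR), whereas GLO1 and GLO5 did not pass, with log2 fold changes of 0.23 and 0.09. Fd-GOGAT, GLO1 and GLO5 passed as falls with library totals alone. GDCH, the H protein of glycine decarboxylase, fell, with 1382 ± 191 CPM at 04:00 and 1053 ± 70.2 CPM at 08:00 (mean ± SD, n = 4) (log2 change -0.39 with SE 0.11, adjusted p = 0.0104 in edgeR).

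Starch genes also differed from member to member. Of 7 tested starch synthesis genes 4 (57.1%, against 29.5% over all genes) rose, 2 (28.6%, against 29.9%) fell and 1 did not pass. The median of 0.27 became -0.26 with library totals alone, under which 2 rose and 4 fell. SSI (LOC_Os06g06560), soluble starch synthase I, had 8.24 and 12.3 CPM in WT and 13.4 and 19.6 CPM in csa at 04:00, and 186 and 233 CPM in WT and 245 and 262 CPM in csa at 08:00. It rose 17.6-fold, the largest rise among the placed starch genes, without overlap (log2 change 4.14 with SE 0.18, adjusted p = 3.45e-08 in edgeR). SSIIb (LOC_Os02g51070), the starch synthase II form known from rice leaves, had 78.0 and 93.8 CPM in WT and 88.4 and 111 CPM in csa at 04:00, and 374 and 323 CPM in WT and 311 and 343 CPM in csa at 08:00. Its rise was 3.65-fold (log2 change 1.87 with SE 0.13, adjusted p = 4.56e-07 in edgeR). ISA1 (LOC_Os08g40930), the debranching enzyme isoamylase 1, had 16.4 and 15.0 CPM in WT and 22.9 and 19.4 CPM in csa at 04:00, and 0.421 and 2.27 CPM in WT and 1.47 and 2.27 CPM in csa at 08:00. It fell 11.5-fold, the libraries at 08:00 all under 2.5 CPM (log2 change -3.53 with SE 0.31, adjusted p = 2.82e-06 in edgeR). SSIIa, the form of the rice endosperm, had 31 counts in all at 04:00 and 0 at 08:00, which makes it at least 8.36-fold lower by a floor of 3 counts over the 4 libraries (edgeR adjusted p = 0.00678). AGPS2, a small subunit of ADP-glucose pyrophosphorylase, rose 1.27-fold (log2 change 0.35 with SE 0.11, adjusted p = 0.0163 in edgeR), but the call was lost without WT 04:00 replicate 1 or csa 08:00 replicate 2 (adjusted p = 0.0542 to 0.0614 in edgeR), and its value turned to -0.18 with library totals alone. SSIIc, a further starch synthase, rose 1.21-fold (log2 change 0.27 with SE 0.10, adjusted p = 0.032 in edgeR) and turned to -0.26 with library totals alone. For SSIIc the call was lost without WT 04:00 replicate 1, csa 04:00 replicate 1, csa 04:00 replicate 2, WT 08:00 replicate 2 or csa 08:00 replicate 2 (adjusted p = 0.051 to 0.112 in edgeR). BEI, a branching enzyme, did not pass (log2 change 0.12 with SE 0.09, adjusted p = 0.273 in edgeR), and GBSSI, granule-bound starch synthase, was too low to test. BEI passed as a fall with library totals alone.

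Of 4 starch breakdown genes 3 (75%, against 29.5% over all genes) rose and 0 fell (against 29.9%). The median of 0.49 became -0.04 with library totals alone, under which 1 rose and 1 fell. DPE1 (LOC_Os07g43390), the plastid disproportionating enzyme, had 1.48 and 1.94 CPM in WT and 2.18 and 2.27 CPM in csa at 04:00, and 5.33 and 5.08 CPM in WT and 6.36 and 6.45 CPM in csa at 08:00. All libraries at 08:00 held more than 2 times the highest at 04:00 (log2 change 1.56 with SE 0.18, adjusted p = 1.94e-05 in edgeR). PWD, a dikinase that phosphorylates starch for its breakdown, rose 1.38-fold (log2 change 0.46 with SE 0.12, adjusted p = 0.0067 in edgeR), and MEX1, the maltose exporter, 1.43-fold (log2 change 0.51 with SE 0.16, adjusted p = 0.0144 in edgeR), while DPE2, which acts on the exported maltose, did not pass, with 175 ± 20.0 CPM at 04:00 and 171 ± 24.8 CPM at 08:00 (mean ± SD, n = 4) (log2 change -0.04 with SE 0.11, adjusted p = 0.805 in edgeR). For MEX1 the call was lost without csa 04:00 replicate 2 (log2 change 0.41, adjusted p = 0.0578 in edgeR). With library totals alone the values of PWD and MEX1 turned to -0.06 and -0.02.

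Among 13 tested sucrose genes 4 rose, 2 fell and 7 gave no call. The share of rises, 30.8%, was near the 29.5% over all genes, and the share of falls was 15.4% against 29.9%. The median of 0.26 became -0.27 with library totals alone, under which 2 rose and 6 fell. SUS4 (LOC_Os03g22120), a sucrose synthase, had 35.4 and 23.4 CPM in WT and 30.3 and 26.4 CPM in csa at 04:00, and 7.3 and 5.71 CPM in WT and 6.42 and 5.53 CPM in csa at 08:00. It fell 4.62-fold with no overlap (log2 change -2.21 with SE 0.16, adjusted p = 7.33e-07 in edgeR). SUS2 also fell, with 184 ± 12.9 CPM at 04:00 and 108 ± 12.5 CPM at 08:00 (mean ± SD, n = 4) (log2 change -0.77 with SE 0.11, adjusted p = 0.000131 in edgeR). OsSWEET13 (LOC_Os12g29220), a sucrose efflux carrier of the phloem path, had 16.1 and 13.3 CPM in WT and 3.7 and 6.85 CPM in csa at 04:00, and 47.2 and 48.2 CPM in WT and 43.7 and 37.5 CPM in csa at 08:00. At 04:00 both csa libraries were below both WT libraries, and at 08:00 all 4 were higher than any at 04:00 (log2 change 2.28 with SE 0.25, adjusted p = 1.64e-05 in edgeR). OsSUT2 (LOC_Os12g44380), a sucrose transporter of the vacuole membrane, had 58.8 and 66.5 CPM in WT and 65.5 and 67.5 CPM in csa at 04:00, and 101 and 119 CPM in WT and 126 and 123 CPM in csa at 08:00. It rose 1.81-fold (log2 change 0.86 with SE 0.10, adjusted p = 1.75e-05 in edgeR). SPS6, a sucrose phosphate synthase, rose 1.32-fold (log2 change 0.40 with SE 0.10, adjusted p = 0.0055 in edgeR), and its value turned to -0.13 with library totals alone. SPS2, of the same family, rose 1.24-fold (log2 change 0.31 with SE 0.10, adjusted p = 0.0207 in edgeR) and turned to -0.21 with library totals alone. For SPS2 the call was lost without WT 04:00 replicate 1, csa 04:00 replicate 1, csa 04:00 replicate 2, WT 08:00 replicate 2 or csa 08:00 replicate 2 (adjusted p = 0.0532 to 0.0785 in edgeR). OsSUT1, the main phloem loader, did not pass (log2 change 0.04 with SE 0.14, adjusted p = 0.839 in edgeR), and passed as a fall with library totals alone.

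Among genes tied to sugar status, 4 of 6 tested (66.7%, against 29.5% over all genes) rose and 1 fell. With library totals alone 2 rose and 2 fell, the median went from 0.64 to 0.12, and MYBS3 did not pass (adjusted p = 0.0593 in edgeR). MYBS2 (LOC_Os10g41260), a MYB factor that represses the sugar-starvation response of α-amylase genes, had 71.8 and 79.9 CPM in WT and 68.0 and 72.9 CPM in csa at 04:00, and 334 and 307 CPM in WT and 334 and 331 CPM in csa at 08:00. The hours were far apart and replicates close together (log2 change 2.16 with SE 0.10, adjusted p = 4.24e-08 in edgeR). OsTPP7 (LOC_Os09g20390), a trehalose-6-phosphate phosphatase, had 10.5 and 9.57 CPM in WT and 8.79 and 10.4 CPM in csa at 04:00, and 64.8 and 33.0 CPM in WT and 34.1 and 42.8 CPM in csa at 08:00. Its rise was 4.41-fold (log2 change 2.14 with SE 0.20, adjusted p = 4.49e-06 in edgeR). MYBS3 rose 1.75-fold (log2 change 0.81 with SE 0.12, adjusted p = 0.000108 in edgeR) and MYBS1, the activator of the starvation response, 1.39-fold (log2 change 0.47 with SE 0.12, adjusted p = 0.00536 in edgeR), the latter turning to -0.05 with library totals alone. RAmy3D, the sugar-starvation α-amylase, had under 1.2 CPM in every library and fell (log2 change -2.31 with SE 0.63, adjusted p = 0.0079 in edgeR). OSK1, a SnRK1 kinase subunit, did not pass (log2 change 0.22 with SE 0.10, adjusted p = 0.0715 in edgeR). Its call as a rise was gained without WT 08:00 replicate 1 (log2 change 0.29, adjusted p = 0.016 in edgeR), and it passed as a fall with library totals alone.

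Aquaporins, the water channels of plasma membrane (PIP) and vacuole (TIP), rose in 12 of 13 tested cases (92.3%, against 29.5% over all genes) and fell in 0, with a median of 2.02. In WT alone 12 rose and 0 fell, where 23% of all genes rose and 22.5% fell. In csa alone 9 rose and 1, OsPIP2;7, fell (log2 change -0.92, adjusted p = 0.039 in edgeR), where 22% of all genes rose and 22.5% fell. The difference between genotypes passed for 0 of the 13, as for 0 of all 19602 genes tested. OsTIP1;2 (LOC_Os01g74450) had 2.03 and 2.41 CPM in WT and 3.24 and 3.95 CPM in csa at 04:00, and 101 and 90.2 CPM in WT and 106 and 81.6 CPM in csa at 08:00. It rose 32.8-fold without overlap (log2 change 5.04 with SE 0.18, adjusted p = 8.64e-09 in edgeR). OsPIP2;2 (LOC_Os02g41860) had 56.3 and 50.2 CPM in WT and 62.4 and 85.3 CPM in csa at 04:00, and 317 and 308 CPM in WT and 334 and 356 CPM in csa at 08:00. The rise was 5.23-fold (log2 change 2.39 with SE 0.13, adjusted p = 1.14e-07 in edgeR). OsPIP1;1 (LOC_Os02g44630) had 495 and 419 CPM in WT and 439.5 and 515 CPM in csa at 04:00, and 2167 and 1728 CPM in WT and 1880 and 1567 CPM in csa at 08:00. No library at 08:00 came near those at 04:00 (log2 change 1.97 with SE 0.14, adjusted p = 5.1e-07 in edgeR). OsTIP2;2, OsPIP2;1 and OsTIP1;1 rose 4.05-fold, 2.94-fold and 5.59-fold (edgeR adjusted p = 1.11e-06, 3.32e-06 and 5.27e-06). OsPIP2;7 was the exception, with 29.6 and 14.1 CPM in WT and 33.7 and 51.3 CPM in csa at 04:00, and 34.1 and 23.9 CPM in WT and 22.3 and 22.8 CPM in csa at 08:00. Its hours overlapped and it did not pass (log2 change -0.26 with SE 0.30, adjusted p = 0.48 in edgeR). Among the 12 rises, OsPIP2;3, OsPIP2;4 and OsPIP2;5 rest on few counts, with 8, 11 and 18 in all at 04:00 and 82, 126 and 50 at 08:00. OsPIP1;3 and OsPIP2;5 overlapped between the hours and lost their call on leaving out at least 1 library and with library totals alone. Of the 13, 10 rose and 1 fell with library totals alone.

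Abscisic acid (ABA), the hormone of stomatal closure, is broken down by the ABA 8′-hydroxylases, and the 3 genes of this family diverged. OsABA8ox3 (LOC_Os09g28390) had 9.22 and 6.23 CPM in WT and 9.58 and 8.96 CPM in csa at 04:00, and 75.9 and 70.6 CPM in WT and 77.9 and 73.8 CPM in csa at 08:00. It rose 8.79-fold without overlap (log2 change 3.14 with SE 0.13, adjusted p = 2.59e-08 in edgeR). OsABA8ox2 had 4.94 and 5.35 CPM in WT and 5.15 and 6.06 CPM in csa at 04:00, and 21.1 and 22.8 CPM in WT and 29.5 and 32.3 CPM in csa at 08:00. Both csa libraries at 08:00 were above both WT libraries, and all were above 04:00 (log2 change 2.28 with SE 0.13, adjusted p = 1.61e-07 in edgeR). OsABA8ox1 went the other way, with 25.4 and 26.0 CPM in WT and 26.0 and 14.7 CPM in csa at 04:00, and 4.98 and 9.3 CPM in WT and 6.55 and 3.47 CPM in csa at 08:00. It fell 3.81-fold (log2 change -1.93 with SE 0.25, adjusted p = 5.84e-05 in edgeR). OsNCED3, an ABA synthesis gene, and OsDREB1A, a cold-response factor, did not pass, with log2 fold changes of 0.84 and -0.10. For OsNCED3 the call was gained without csa 08:00 replicate 2 (log2 change 1.06, adjusted p = 0.0377 in edgeR).

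Genes that handle reactive oxygen gave 4 rises, 2 falls and 1 without a call among 7 tested. The shares were 57.1% and 28.6% against 29.5% and 29.9% over all genes, and the median of 0.45 became -0.08 with library totals alone, under which 2 rose and 3 fell. APX2 (LOC_Os07g49400), a cytosolic ascorbate peroxidase, had 67.3 and 55.7 CPM in WT and 61.4 and 65.8 CPM in csa at 04:00, and 204 and 148 CPM in WT and 186 and 124 CPM in csa at 08:00. It rose 2.64-fold (log2 change 1.40 with SE 0.15, adjusted p = 1.46e-05 in edgeR). CATA (LOC_Os02g02400), a catalase, had 30.8 and 15.3 CPM in WT and 23.0 and 13.8 CPM in csa at 04:00, and 118 and 103 CPM in WT and 59.1 and 58.4 CPM in csa at 08:00. Both WT libraries exceeded both csa libraries at 08:00, and the hours did not overlap (log2 change 1.98 with SE 0.23, adjusted p = 2.26e-05 in edgeR). cCuZnSOD, a cytosolic superoxide dismutase, rose 1.83-fold (log2 change 0.87 with SE 0.16, adjusted p = 0.000601 in edgeR). APX8, the thylakoid ascorbate peroxidase, and BAS1, the plastid 2-Cys peroxiredoxin, fell 1.29-fold and 1.6-fold (edgeR adjusted p = 0.0288 and 0.0069). For APX8 the call was lost without csa 04:00 replicate 1, WT 08:00 replicate 2 or csa 08:00 replicate 1 (adjusted p = 0.0707 to 0.0857 in edgeR). APX1, a cytosolic form, rose 1.36-fold with overlapping libraries (log2 change 0.45 with SE 0.17, adjusted p = 0.0365 in edgeR) and turned to -0.08 with library totals alone. For APX1 the call was lost without WT 04:00 replicate 2, csa 04:00 replicate 1, csa 04:00 replicate 2, WT 08:00 replicate 1, WT 08:00 replicate 2 or csa 08:00 replicate 1 (adjusted p = 0.0524 to 0.118 in edgeR).

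The heat shock list was small, with 3 rises (75%, against 29.5% over all genes) and 1 fall (25%, against 29.9%) among 4 tested. With library totals alone it had 2 rises and 1 fall, and HSP90 did not pass. HSFA2d (LOC_Os03g06630), a heat stress transcription factor gene, had 69.2 and 55.9 CPM in WT and 63.5 and 53.7 CPM in csa at 04:00, and 234 and 186 CPM in WT and 152 and 154 CPM in csa at 08:00. It rose 2.96-fold (log2 change 1.57 with SE 0.13, adjusted p = 1.8e-06 in edgeR). HSFA2c (LOC_Os10g28340), of the same class, had 8.73 and 7.52 CPM in WT and 7.07 and 6.22 CPM in csa at 04:00, and 4.21 and 4.61 CPM in WT and 5.28 and 4.82 CPM in csa at 08:00. It was the member that fell, by 1.55-fold and without overlap (log2 change -0.64 with SE 0.17, adjusted p = 0.00638 in edgeR). HSP90 and HSP101, chaperones, rose 1.58-fold and 5.69-fold, the latter from under 1 CPM (edgeR adjusted p = 0.00303 and 0.000158).

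JAZ genes, whose products repress jasmonate responses, rose in 7 of 9 tested cases (77.8%, against 29.5% over all genes) and fell in 0, with a median of 0.89. JAZ4 (LOC_Os09g23660) had 82.2 and 86.1 CPM in WT and 91.3 and 96.5 CPM in csa at 04:00, and 195 and 173 CPM in WT and 208 and 176 CPM in csa at 08:00. It rose 2.11-fold with no overlap (log2 change 1.08 with SE 0.10, adjusted p = 3.74e-06 in edgeR). JAZ1 (LOC_Os04g55920) had 46.7 and 43.9 CPM in WT and 48.2 and 57.3 CPM in csa at 04:00, and 176 and 116 CPM in WT and 119.9 and 99.8 CPM in csa at 08:00. The first WT replicate at 08:00 stood highest (log2 change 1.37 with SE 0.17, adjusted p = 3.74e-05 in edgeR). JAZ10, JAZ3, JAZ6 and JAZ11 rose between 1.47-fold and 5.49-fold, and the first csa replicate at 08:00 was the highest library for JAZ6, JAZ10 and JAZ11. For JAZ11 the call was lost without csa 08:00 replicate 1 (log2 change 0.68, adjusted p = 0.0501 in edgeR). The list had 3 rises and 1 fall with library totals alone.

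The flavonoid genes CHS1 and CHI, which encode chalcone synthase and chalcone isomerase and open the pathway, both rose, against 29.5% of all genes. CHS1 (LOC_Os11g32650) had 4.67 and 26.7 CPM in WT and 10.2 and 54.4 CPM in csa at 04:00, and 679 and 574 CPM in WT and 1257 and 572 CPM in csa at 08:00. Replicates differed widely at both hours, and the lowest library at 08:00 was still above the highest at 04:00 (log2 change 5.06 with SE 0.60, adjusted p = 2.91e-05 in edgeR). CHI (LOC_Os03g60509) had 0.604 and 0.705 CPM in WT and 1.45 and 3.21 CPM in csa at 04:00, and 18.2 and 10.8 CPM in WT and 17.5 and 8.43 CPM in csa at 08:00. It rose 9.72-fold (log2 change 3.28 with SE 0.44, adjusted p = 6.54e-05 in edgeR). Among genes often used as references, EF1A, the translation elongation factor 1-alpha, fell, with 468 and 458 CPM in WT and 421 and 414 CPM in csa at 04:00, and 165 and 104 CPM in WT and 90.2 and 93.6 CPM in csa at 08:00. The hours did not overlap (log2 change -1.98 with SE 0.15, adjusted p = 1.04e-06 in edgeR), and the reference table gives this factor several near-identical copies. ACT1, an actin, rose 1.25-fold and turned to -0.21 with library totals alone (log2 change 0.32 with SE 0.11, adjusted p = 0.0249 in edgeR). For ACT1 the call was lost without WT 04:00 replicate 1, csa 04:00 replicate 1, WT 08:00 replicate 1 or csa 08:00 replicate 1 (adjusted p = 0.0554 to 0.108 in edgeR).

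Outside the lists, the 2 largest rises and 2 largest falls among genes with a mean of at least 5 CPM at the higher hour and no overlap in either genotype were loci without a name in the tables used here. LOC_Os03g56930 had 0.22 and 1.41 CPM in WT and 0.264 and 0.105 CPM in csa at 04:00, and 298 and 191 CPM in WT and 197 and 233 CPM in csa at 08:00. It was under 2 CPM in each library at 04:00 (log2 change 8.87 with SE 0.41, adjusted p = 4.24e-08 in edgeR). LOC_Os01g36720 had 0.0549 and 0 CPM in WT and 0 and 0.105 CPM in csa at 04:00, and 24.1 and 21.0 CPM in WT and 23.1 and 14.8 CPM in csa at 08:00 (edgeR adjusted p = 3.39e-08). Its 3 counts at 04:00 and 1166 at 08:00 gave a ratio of 480, scaled by the effective library sizes, with an exact 95% interval of 164 to 2330 that covers counting error only. LOC_Os07g35310 fell, with 40.4 and 38.6 CPM in WT and 22.7 and 13.6 CPM in csa at 04:00, and 0.491 and 0.156 CPM in WT and 0.0669 and 0.0709 CPM in csa at 08:00 (log2 change -7.15 with SE 0.31, adjusted p = 3.12e-08 in edgeR). LOC_Os06g50080 fell too, with 23.4 and 19.4 CPM in WT and 15.5 and 13.4 CPM in csa at 04:00, and 0.0702 and 0.156 CPM in WT and 0.134 and 0.142 CPM in csa at 08:00 (log2 change -7.06 with SE 0.25, adjusted p = 7.96e-09 in edgeR). All 4 were at or near 0 at their lower hour in both genotypes.

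WT and csa were then tested apart, as 2 libraries against 2 with the spread of all 4 groups shared. In WT 4509 genes rose and 4411 fell (45.5% called), and in csa 4306 rose and 4412 fell (44.5% called). With library totals alone the rises and falls were 2255 and 9012 in WT and 2187 and 7997 in csa. The difference between these changes was tested as genotype by time: 0 of 19602 genes passed in edgeR, with 1034 at an unadjusted p below 0.05, whereas DESeq2 called 18 and edgeR without a filter on low counts 258 of 30460. The placed genes with the lowest p in this test were OsSWEET13, NIA1, ZEP, CHI and OsPIP2;7, and none of them passed. OsSWEET13 rose by 1.70 ± 0.23 (log2, SE) in WT and 2.93 ± 0.25 in csa, where its level at 04:00 was lower, a difference of 1.23 (edgeR adjusted p = 0.909). NIA1 rose by 4.27 ± 0.28 in WT and 3.04 ± 0.26 in csa, where its level at 04:00 was higher, a difference of -1.24 (edgeR adjusted p = 0.909). With no filter on low counts both differences passed (edgeR adjusted p = 0.00375 and 0.000469), as did those of CHI and OsPIP2;7 (edgeR adjusted p = 0.00224 and 0.000461), and in DESeq2 none of the 5 did (adjusted p = 0.167 to 0.963). ZEP, CHI and OsPIP2;7 differed by -0.66, -2.01 and -1.32 (edgeR adjusted p = 0.909 for each).

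LD leaves at the same hours, 8 other libraries, serve as the nearest comparison, since no film was lifted from them. Of 19408 genes tested there 4520 rose and 4140 fell (44.6% called), which became 2229 rises and 9765 falls with library totals alone. The photoperiod by time test over the 16 libraries called 6820 of 20301 genes (33.6%), 3408 with a more positive change in SD and 3412 with a more negative one. Of 125 placed list genes tested in it, 57 passed. The 5 with the lowest p were HSFA2c, HSFA2d, OsPRR1, SSI and OsGI. LD and SD levels in the next sentences are CPM scaled over all 48 leaf libraries, the lowest and highest of 4 libraries.

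HSFA2c moved in opposite directions. In LD it stood at 4.23 to 5.09 CPM at 04:00 and 28.1 to 47.5 CPM at 08:00, and in SD at 7.14 to 10.1 CPM at 04:00 and 4.6 to 5.79 CPM at 08:00. The change was 2.97 (log2) in LD and -0.64 in SD (difference -3.58 ± 0.21 SE, edgeR adjusted p = 1.65e-07). HSFA2d rose in both, to a higher level in LD, with 59.7 to 78.7 CPM at 04:00 and 868 to 1000 CPM at 08:00 against 61.6 to 80.2 CPM at 04:00 and 166 to 255 CPM at 08:00 in SD (difference -2.26 ± 0.16 SE, edgeR adjusted p = 6.32e-07). HSP90 and APX2, named after their values were seen, also rose more in LD, by 2.80 and 3.79 against 0.66 and 1.40 in SD (difference -2.12 and -2.36, edgeR adjusted p = 1.31e-05 and 4.42e-06).

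Clock genes differed in size of change, not in sign, where both changes passed. OsPRR1 stood at 3.28 to 4.37 CPM at 04:00 and 70.7 to 126 CPM at 08:00 in LD and 4.15 to 4.9 CPM at 04:00 and 19.6 to 22.6 CPM at 08:00 in SD, nearly level before dawn and apart after it (difference -2.40 ± 0.17 SE, edgeR adjusted p = 8.44e-07). OsGI stood at 5.49 to 7.49 CPM at 04:00 and 462 to 602 CPM at 08:00 in LD and 11.0 to 12.4 CPM at 04:00 and 218 to 280.0 CPM at 08:00 in SD (difference -1.80 ± 0.16 SE, edgeR adjusted p = 2.92e-06). OsPRR37 and OsPRR73 likewise rose more in LD (differences -1.72 and -0.94, edgeR adjusted p = 0.00116 and 0.00627), and OsPRR95 rose more in SD (difference 1.37, edgeR adjusted p = 0.00133). OsLHY gave no call in LD (log2 fold change 0.07, edgeR adjusted p = 0.717), with 4460 to 6470 CPM at 04:00 and 4900 to 5940 CPM at 08:00, and rose in SD, with 2190 to 2800 CPM at 04:00 and 7050 to 9920 CPM at 08:00 (difference 1.80 ± 0.18 SE, edgeR adjusted p = 8.11e-06). 

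SSI stood at 90.8 to 176 CPM at 04:00 and 202 to 268 CPM at 08:00 in LD and 9.54 to 22.5 CPM at 04:00 and 203 to 294 CPM at 08:00 in SD, so the photoperiods overlapped at 08:00 and not at 04:00 (difference 3.03 ± 0.24 SE, edgeR adjusted p = 1.86e-06). CHS1, named after its values were seen, stood at 255 to 482 CPM at 04:00 and 173 to 275 CPM at 08:00 in LD and 5.41 to 62.5 CPM at 04:00 and 639 to 1380 CPM at 08:00 in SD, with no call in LD (log2 fold change -0.49, edgeR adjusted p = 0.0905; difference 5.59 ± 0.71 SE, edgeR adjusted p = 5.92e-05). Among flowering genes Hd3a, OsMADS15 and Ehd2 had a more positive change in SD (differences 1.18, 1.32 and 2.36, edgeR adjusted p = 0.0023, 0.00172 and 0.02); for Ehd2 the call was lost without csa LD 08:00 replicate 1 (edgeR adjusted p = 0.0504). Ehd2 was low, with 0.505 to 1.24 CPM at 04:00 and 0 to 0.484 CPM at 08:00 in LD. In SD it had 0.476 to 0.726 CPM at 04:00 and 0.609 to 0.997 CPM at 08:00. Its change passed in neither photoperiod alone (edgeR adjusted p = 0.0553 in LD and 0.298 in SD). OsMADS15 fell in LD (log2 change -0.72, adjusted p = 0.0143 in edgeR) and rose in SD, where library totals alone ended the call. Hd3a stood at 61.2 to 118 CPM at 04:00 and 102 to 115 CPM at 08:00 in LD and 42.9 to 55.0 CPM at 04:00 and 114 to 162 CPM at 08:00 in SD. Hd1 fell in both, with log2 fold changes of -2.68 in LD and -2.65 in SD, and the difference of 0.17 ± 0.35 SE did not pass (edgeR adjusted p = 0.745). CAB1R, also named after its values were seen, rose by 9.17 in LD and 7.24 in SD (difference -1.91 ± 0.36 SE, edgeR adjusted p = 0.00107). The other placed light-harvesting genes, LHCB2 and CAB2R, did not pass and differed in sign (differences 0.73 and -0.43, edgeR adjusted p = 0.156 and 0.47).

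**Figure D4:**
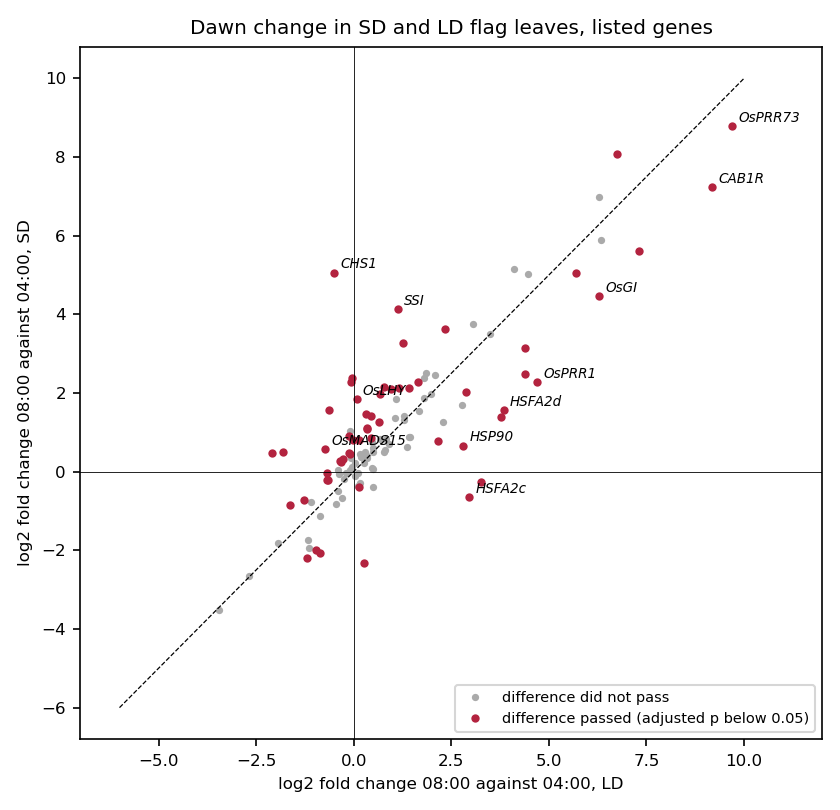
Log2 fold change at 08:00 against 04:00 in LD (x axis) and SD (y axis) flag leaves for 120 placed list genes; red points passed the photoperiod by time test and the dashed line marks equal change. HSFA2c lies below 0 in SD and above 0 in LD, OsLHY and CHS1 lie near 0 in LD and well above it in SD, and OsPRR73 and CAB1R lie far up in both.

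Over the 6 collections of a day in SD, with 4 libraries per hour, the 08:00 level was often an extreme for the called list genes. Of the 78 placed list genes that rose, 47 had their highest mean at 08:00, 14 at 12:00, 14 at 16:00 and 3 at 20:00. Of the 20 that fell, 17 had their lowest mean at 08:00, 2 at 12:00 and 1 at 16:00. These hours share the 08:00 and 04:00 libraries with the comparison above and are given as a description. The genes were called on their 08:00 level, which favours an extreme at that hour in advance. Of the 25 that did not pass, 8 had their highest mean at 08:00 and 6 their lowest. In the 4 libraries labelled SD 12:00, 24 of 24 values of the genotype markers lay nearer the other genotype, and these libraries are used here only as 1 pool of both genotypes. OsLHY, SSI and CHS1 peaked at 08:00, with means of 8410, 256 and 850.0 CPM, and had dropped to 1320, 87.8 and 96.2 CPM by 12:00. OsPRR73 was still rising at 08:00, with 637 CPM then and 1180 CPM at 12:00, and OsGI went from 249 CPM at 08:00 to 2080 CPM at 16:00. Hd3a was highest at 08:00, at 136 CPM, when Hd1 stood at 1.07 CPM, and Hd1 was highest at 20:00, at 19.3 CPM.

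**Figure D5:**
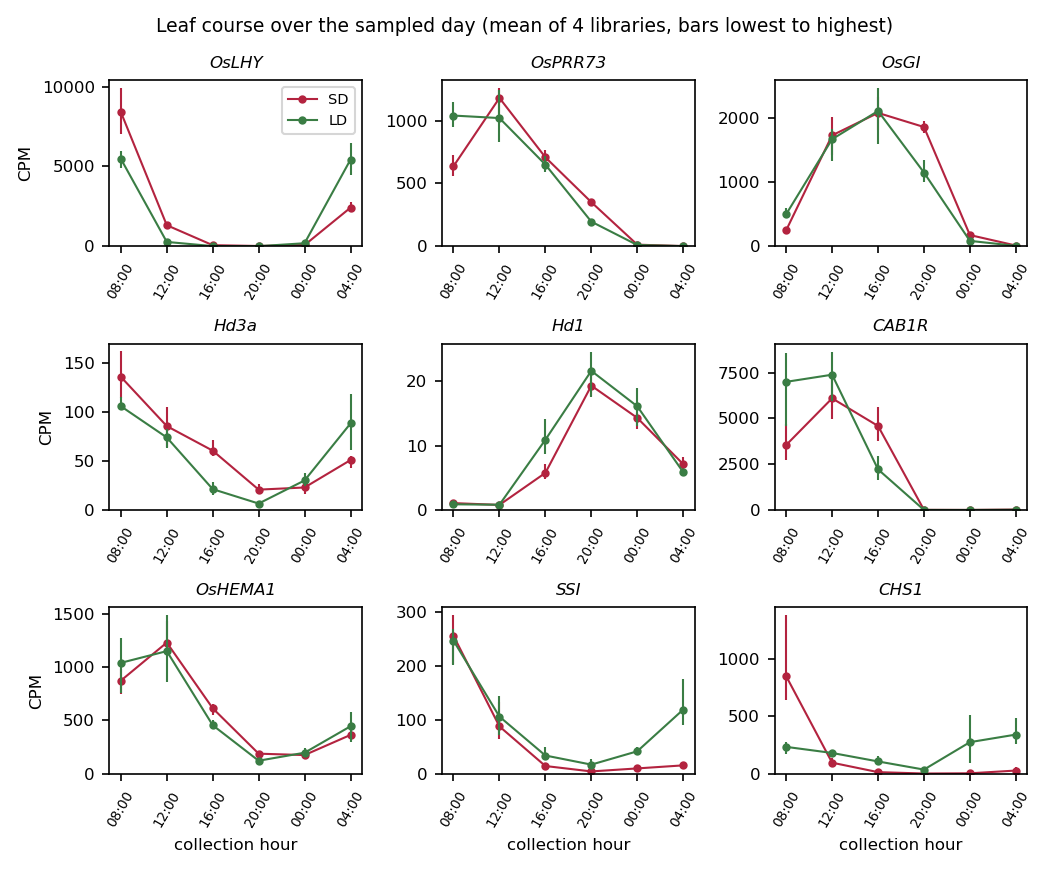
Mean CPM (y axis, scaled over all 48 leaf libraries) at the 6 collection hours (x axis) for 9 genes in SD (red) and LD (green); bars run from the lowest to the highest of 4 libraries, WT and csa together. OsLHY, SSI and CHS1 fall steeply after 08:00 in SD, while in SD OsPRR73, OsGI and CAB1R reach their highest mean later in the day.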

How the data were processed

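Per the labels, total RNA was extracted with TRIzol, and the authors deposited a table of gene counts per library for 48 flag leaf and 16 anther libraries. The values are whole numbers with a different total in each library. The sources used here give no aligner, genome build, annotation version, counting rule or strand setting, so genes with near-identical copies or overlapping and antisense neighbours are uncertain. The labels call the 2 libraries of a group biological replicates without naming plants or plots, and p-values measure the spread between these libraries.

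The deposited counts were tested in R 4.3.3 with edgeR 4.0.16 (quasi-likelihood test, TMM scaling, filterByExpr, limma 3.58.1), with genotype plus time over the 8 SD and, apart, the 8 LD libraries, and with group means for the other comparisons. P-values were adjusted by Benjamini and Hochberg over all tested genes, with a threshold of 0.05. The procedure was tested on simulated counts of 19602 genes, with 100 changed 2-fold and 100 changed 4-fold. Of these 84% and 98% were recovered, with 11 false calls. Far fewer genes changed there than were called in the data, so this does not test the scaling. Alternatives were RLE and upper-quartile scaling, DESeq2 1.42.0, no filter on low counts, all 48 leaf libraries in 1 fit, a replicate block, each library left out and, added after seeing the data, library totals alone. The members and lists were chosen with earlier results of these data known.

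Identifiers carry no names in the files. Of 242 list genes whose symbols were paired with identifiers by hand, 143 were placed in the RefSeq gene table by symbol, chromosome and a position within 15% of the chromosome's length. The other 99 are not used here, apart from the locus taken as CSA. The placed share differs widely between lists, so list counts and medians describe the placed members and not whole families. A further list gene is not reported here. Of each list the members that passed with the lowest p were described, up to 6 per list, all for clock and flowering, and, beyond the rule, all 9 of the chlorophyll list, with members that did not pass where a list is given in full. Outside the lists the 2 largest rises and 2 largest falls were named, and for each interaction the 5 list genes with the lowest p.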

Additional observations from a re-analysis of the deposited data

Results flagged for a closer look

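The dawn change differed between photoperiods for 6820 genes, by the photoperiod by time test in edgeR over 16 libraries. The differences below are the SD change minus the LD change on the log2 scale, and each passed that test. A more negative change in SD was found for HSFA2c (-3.58), OsPRR1 (-2.40), APX2 (-2.36), HSFA2d (-2.26), HSP90 (-2.12), CAB1R (-1.91), OsGI (-1.80), OsPRR37 (-1.72) and OsPRR73 (-0.94). A more positive change in SD was found for CHS1 (5.59), SSI (3.03), Ehd2 (2.36), OsLHY (1.80), OsPRR95 (1.37), OsMADS15 (1.32) and Hd3a (1.18). Of these 16 genes HSFA2c and OsMADS15 passed in opposite directions in the 2 photoperiods (log2 changes of 2.97 and -0.72 in LD and -0.64 and 0.57 in SD). Ehd2 was low at both hours, at 0 to 1.24 CPM in LD and 0.476 to 0.997 CPM in SD. LHCB2 and CAB2R, of the same list as CAB1R, did not pass. The SD and LD plants differed in the film, the hour of first light, day length and plot together, and the labels give no collection dates. These and any other difference between the SD and LD plants cannot be told apart here.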

How the results depend on the processing

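The counts of genes that changed, rises and falls together, kept within 1.5 times of the values reported under RLE and upper-quartile scaling, DESeq2, no filter on low counts, all 48 leaf libraries in 1 fit, the replicate block and library totals alone. The exceptions were genotype by time, with 0 calls as reported, 18 in DESeq2, 258 with no filter and 1 with all 48 leaf libraries, and the requirement of at least 2-fold, which left 6102 genes. Taken apart, rises and falls moved by more under library totals alone, from 5783 and 5866 to 2890 and 10465 in SD, from 4509 and 4411 to 2255 and 9012 in WT, from 4306 and 4412 to 2187 and 7997 in csa, and from 4520 and 4140 to 2229 and 9765 in LD. Leaving out each library in turn gave 10322 to 11453 calls for the SD change, 6226 to 9012 in WT, 6158 to 9289 in csa, 6988 to 9241 in LD, 5386 to 6826 for photoperiod by time and 0 to 1 for genotype by time. The replicate numbers do not pair the libraries, since deviations of same-numbered libraries correlated at -0.139 to 0.0961 over 6 pairs. With the replicate block 11515 genes changed in SD, 8794 in WT, 8624 in csa, 8345 in LD and 6915 by photoperiod, and no call of a named gene in the SD change was lost.

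Of 99 called list genes, CSA included, 13 lost their call on leaving out at least 1 library, namely ACT1, AGPS2, APX1, APX8, cpFBPase, GS2, JAZ11, JAZ7, MEX1, OsPIP1;3, OsPIP2;5, SPS2 and SSIIc, and 0 changed sign. With all 48 leaf libraries 4 lost it (ACT1, JAZ7, OsPIP1;3, SSIIc), and with no filter 2 did (SPS2, SSIIc). With library totals alone 13 lost it (cCuZnSOD, GLO4, HSP90, JAZ11, JAZ3, JAZ6, MYBS3, OsMADS15, OsPIP1;3, OsPIP2;5, OsPORB, RBCS2, RPE) and 14 changed sign. The values that turned negative under library totals were, on the log2 scale, -0.13 for SPS6, -0.015 for MEX1, -0.082 for APX1, -0.051 for MYBS1, -0.042 for cpFBPase, -0.18 for AGPS2, -0.26 for SSIIc, -0.12 for OsMADS14, -0.21 for SPS2, -0.18 for JAZ7, -0.21 for ACT1, -0.062 for PWD, -0.01 for Ehd4 and -0.15 for GS2. Among genes without a call as reported, they were -0.44 for GLO5, -0.40 for BEI, -0.47 for OsMADS56, -0.30 for GLO1, -0.49 for OsSUT1, -0.30 for OSK1 and -0.47 for Fd-GOGAT, each of which then passed as a fall. A further 11 list genes without a call as reported kept their sign and passed under library totals. These shifts follow from the scaling itself, which moved the median of all genes to -0.54. Changes of genes under about 1 CPM rest on few counts.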
